A study of Homo sapiens with 4 samples.

Results

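The 32 genes described here form the JAK-STAT pathway together with its SOCS and PIM genes. They were taken by gene symbol from a list drawn up with earlier results of these data known, all 32 were listed among the 32673 genes of the deposited expression table, and 31 of them passed the filter for testing. They are the kinases JAK1, JAK2, JAK3 and TYK2, 6 STAT transcription factors, the 8 members of the SOCS family, PIM1 to PIM3, PIAS1 to PIAS4, 4 phosphatases, the adaptors SH2B3 and STAM, and the ligand OSM.

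In this pathway a cytokine binds its receptor, the JAK kinases held on the receptor phosphorylate it, and STAT proteins docked there are phosphorylated, pair and move to the nucleus to switch on genes. Among those genes are CISH, the SOCS genes and the PIM kinases, of which the SOCS proteins shut the receptor complex down and the PIM kinases favour survival and growth. In chronic myeloid leukaemia the BCR-ABL kinase keeps STAT5 active without a cytokine, and STAT3 activity is a known route by which leukaemia cells survive when BCR-ABL is inhibited.

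Messenger RNA of 2 cell lines was sequenced in 2 libraries each, made from 10000000 cells per library. TF1-BA cells are human TF1 erythroleukaemia cells that carry BCR-ABL delivered by a retrovirus and are sensitive to imatinib, an inhibitor of the ABL kinase. TF1-BAR cells were derived from TF1-BA cells by months of continuous imatinib and are resistant, and their culture contained 2 µM imatinib. Both lines grew in 10% serum with GM-CSF, a cytokine that itself signals through JAK2 and STAT5, at 2 ng/ml per the labels, while the study's methods give another concentration. The TF1-BAR libraries carry the title VECTOR, and neither source used here states which vector was present or whether imatinib was in the medium at harvest, so resistance, exposure to the drug and a vector cannot be told apart. The libraries held 15465497 to 18042299 fragments. Nothing states that the libraries of a line came from separate cultures, so p-values measure the spread between libraries, which may be technical. In a pooled RNA sample, fewer cells that express a gene and less of its RNA per cell cannot be told apart. All 11 markers of TF1 cells were expressed, with a summed level of 493 to 502 FPKM (the number of sequenced fragments divided by transcript length and library size) in TF1-BA cells and 621 to 655 FPKM in TF1-BAR cells.

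Most of the pathway was expressed in both lines, and the levels of the 32 genes ranged widely. PIM1 had the highest level in both lines, at 236 and 195 FPKM in TF1-BA cells and 252 and 268 FPKM in TF1-BAR cells. In TF1-BA cells it was followed by PTPN1, STAT5A and STAT5B with means of 75.9, 64.9 and 51.2 FPKM, and in TF1-BAR cells by STAT5A, PTPN1 and STAT5B with means of 68.7, 63.6 and 53.9 FPKM. The libraries of neighbours in this top group did not overlap within a line. Further down, PTPRC, JAK1 and SH2B3 overlapped as neighbours in TF1-BA cells, and in all the libraries of 10 of 31 neighbouring pairs overlapped there. In TF1-BAR cells 17 of 31 neighbouring pairs overlapped, among them PTPRC with PIM2, SH2B3 with TYK2, and SOCS3 with STAM. JAK3 and SOCS3 moved up the order, JAK3 from rank 20 to rank 17 and SOCS3 from rank 14 to rank 10, while JAK2 moved from rank 15 to rank 21.

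**Figure D1:**
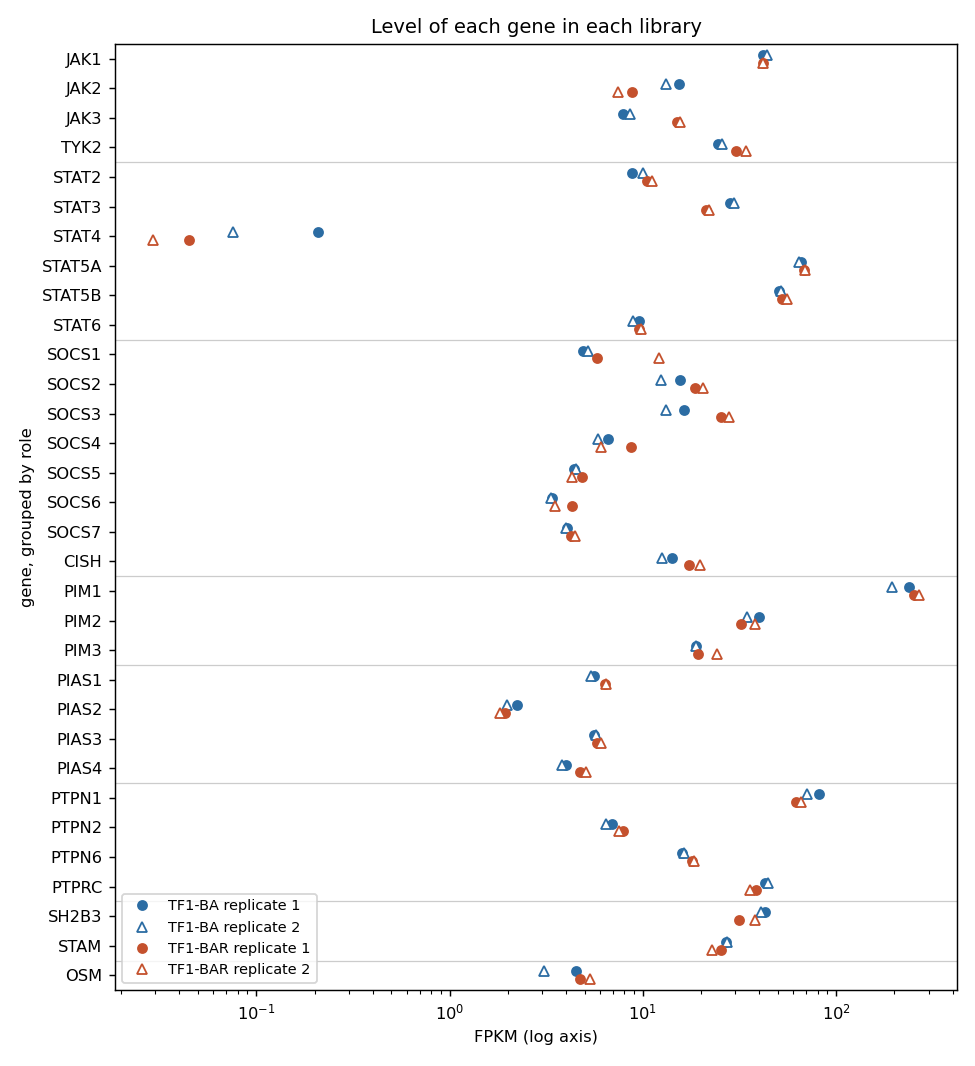
FPKM of the 32 genes on a log axis, 1 row per gene grouped by role, with 1 point for each TF1-BA library (blue) and each TF1-BAR library (red). PIM1 lies highest, between 195 and 268 FPKM, STAT4 lies lowest, and JAK2, JAK3, STAT3, SOCS3 and CISH show the libraries of the lines apart.

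The expression of 7 of the 31 genes tested differed between the lines at an adjusted p under 0.05. JAK3, SOCS3, CISH, SOCS2 and TYK2 were upregulated in TF1-BAR cells, and JAK2 and STAT3 were downregulated. These 7 genes are 22.6% of those tested, beside 26.9% of all 15519 genes, with 16.3% of all genes higher and 10.5% lower. The share of the pathway thus lay near that of all genes. A 2-fold change, or 1 on the log2 scale, together with the adjusted p was reached by 0 of 31 genes with limma, beside 4.75% of all genes. At an unadjusted p under 0.05 there were 12 of 31, beside 42.2% of all genes. When limma voom was run on the fragments recovered from the FPKM values, 11 genes had an adjusted p under 0.05, beside 37.4% of all genes, and again 0 reached the fold threshold. The 7 genes were all among these 11, and the other 4 were PIM1, PTPN1, PTPRC and SH2B3. The calls depended on which library was left out, for these 31 genes as over all genes, and such a fit leaves a line with 1 library. The libraries of the lines did not overlap for 27 of 31 genes, or 87.1%, beside 69.3% of all genes, with 20 higher and 7 lower in TF1-BAR cells. The median log2 fold change of the 31 genes was 0.17, that of all genes 0.066, and the 10th and 90th percentiles over all genes were −0.47 and 0.64.

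**Figure D2:**
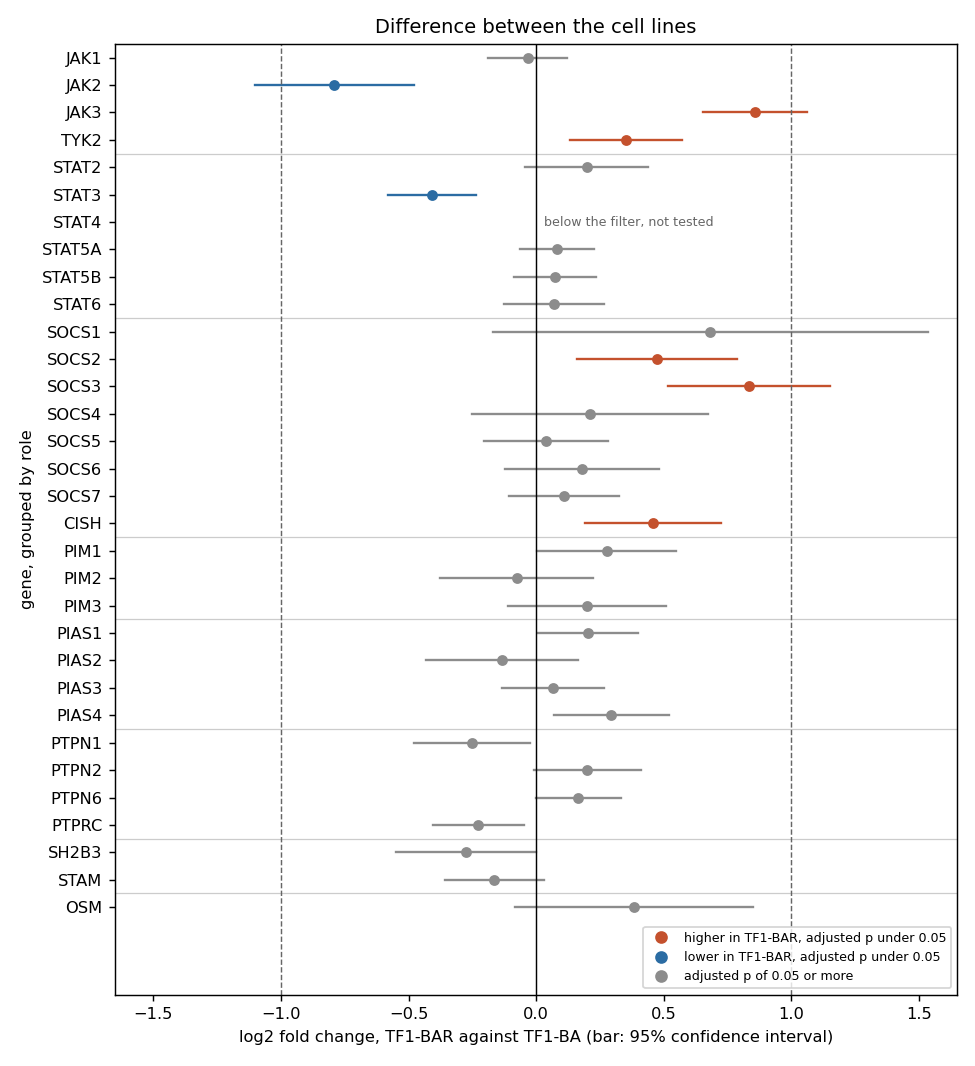
Log2 fold change of each gene, TF1-BAR against TF1-BA, with the 95% confidence interval of limma as a bar, red and blue where the adjusted p was under 0.05 and dashed lines at −1 and 1. JAK3 (0.86) and SOCS3 (0.83) lie farthest to the right among the coloured points and JAK2 (−0.79) farthest to the left.

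Among the JAK kinases, JAK2 and JAK3 exchanged places. JAK2, the kinase of the GM-CSF and erythropoietin receptors, had 15.4 and 13.2 FPKM in TF1-BA cells and 8.75 and 7.40 FPKM in TF1-BAR cells. Both resistant libraries were below both sensitive ones, and the mean fell from 14.3 ± 1.57 to 8.08 ± 0.955 FPKM (SD, n = 2 each), a log2 fold change of −0.79 (SE 0.121, limma adjusted p = 0.0139). JAK3, the kinase that works with the common gamma chain of lymphoid cytokine receptors, had 7.85 and 8.56 FPKM in TF1-BA cells and 15.0 and 15.6 FPKM in TF1-BAR cells. Its mean rose 1.86-fold, from 8.21 ± 0.502 to 15.3 ± 0.427 FPKM, a log2 fold change of 0.86 (SE 0.0790, limma adjusted p = 0.00597). These values rested on 734 to 1719 fragments per library for JAK2 and on 902 to 1704 for JAK3. The ratio of JAK2 to JAK3 was 1.97 and 1.54 in the sensitive libraries and 0.585 and 0.476 in the resistant ones, so that the order of these kinases was turned in every library.

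TYK2, which serves the interferon and interleukin-12 receptors, had 24.6 and 25.6 FPKM in TF1-BA cells and 30.1 and 34.3 FPKM in TF1-BAR cells. Its rise was the smallest of the 7 changes, with a log2 fold change of 0.35 (SE 0.0852, adjusted p = 0.0398), and it stayed under the threshold in 10 of 12 other settings with all libraries, with a highest adjusted p of 0.101. JAK1, shared by most cytokine receptors, was the most abundant of the family and lay at 41.8 and 43.8 FPKM in TF1-BA cells and at 41.9 and 41.7 FPKM in TF1-BAR cells. The lines overlapped for JAK1, and the interval of its log2 fold change ran from −0.19 to 0.12 around −0.034, a value whose sign turned to 0.034 when FPKM were rescaled to TPM. The summed FPKM of the 4 kinases was 89.6 and 91.2 in TF1-BA cells and 95.7 and 99.0 in TF1-BAR cells. Of this sum JAK2 made up 17.2% and 14.5% in the sensitive libraries and 9.15% and 7.48% in the resistant ones, while JAK3 went from 8.76% and 9.39% to 15.6% and 15.7%.

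**Figure D3:**
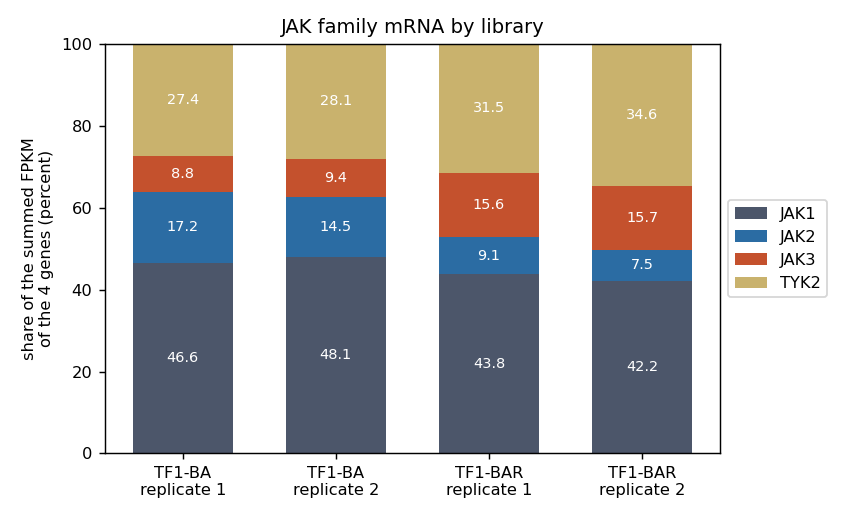
Share of each JAK gene in the summed FPKM of JAK1, JAK2, JAK3 and TYK2, in percent, with 1 stacked bar per library. JAK2 has a larger share than JAK3 in the TF1-BA bars (17.2% beside 8.76% in replicate 1) and a smaller one in the TF1-BAR bars (7.48% beside 15.7% in replicate 2).

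JAK2 lies on the plus strand of chromosome 9 at positions 4984390 to 5128183 of GRCh38. The 14 genes tested within 2 Mb on each side had a median log2 fold change of −0.16, with 3 lower and 1 higher, and the 596 genes tested on the chromosome a median of 0.077. JAK3 and TYK2 lie on the minus strand of chromosome 19, at positions 17824780 to 17848071 and 10350529 to 10380676. Around JAK3 14 of 109 genes were higher and 15 lower, with a median log2 fold change of 0.070, whereas around TYK2 21 of 95 genes were higher and 4 lower, with a median of 0.14. Over all genes 16.3% were higher and 10.5% lower. The markers of T cells, in which JAK3 is abundant, had a summed level of 19.3 and 20.8 FPKM in TF1-BA cells and of 5.76 and 6.36 FPKM in TF1-BAR cells. This sum was in effect the single gene CD3D, as CD3E and CD3G were at or under 0.0506 FPKM in every library, and its part in the values of JAK3 was not tested.

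Of the 5 STAT genes tested 1 changed, STAT3, or 20% beside 26.9% of all genes. STAT3, the factor that acts downstream of the interleukin-6 family, had 28.1 and 29.6 FPKM in TF1-BA cells and 21.2 and 22.1 FPKM in TF1-BAR cells. The groups did not overlap, and the mean fell from 28.9 ± 1.05 to 21.6 ± 0.597 FPKM (SD, n = 2 each), to 0.750 of its level in the sensitive cells (log2 fold change −0.41, SE 0.0668, limma adjusted p = 0.0166). All 12 other settings with 4 libraries kept STAT3 under an adjusted p of 0.05, with log2 fold changes between −0.43 and −0.34. STAT3 and JAK3 were the only genes of the 7 for which this held.

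STAT5A and STAT5B, the near-identical factors that BCR-ABL activates, were the most abundant STAT genes in both lines. STAT5A had 66.0 and 63.8 FPKM in TF1-BA cells and 68.4 and 68.9 FPKM in TF1-BAR cells, and the interval of its log2 fold change was −0.065 to 0.23 (adjusted p = 0.332). STAT5B had 50.7 and 51.7 FPKM beside 52.3 and 55.5 FPKM, with an interval of −0.087 to 0.23 (adjusted p = 0.419) around 0.073, a value of 0.031 to 0.12 with 1 TF1-BAR library left out. Both intervals end well short of a 2-fold change in either direction. As the coding sequences are alike, fragments that fit both genes may have been counted for the wrong one, and the ratio of STAT5A to STAT5B was between 1.23 and 1.31 in all 4 libraries. STAT3, STAT5A and STAT5B are neighbours on chromosome 17, STAT5B at 42199168 to 42276707, STAT5A at 42287547 to 42311943 and STAT3 at 42313324 to 42388568, and STAT3 alone of the 3 passed the test. With STAT3 lower, the ratio of STAT5A to STAT3 went from 2.35 and 2.16 in the sensitive libraries to 3.23 and 3.12 in the resistant ones.

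Of the other STAT genes, STAT2, the partner in the interferon response, had 8.75 and 10.0 FPKM in TF1-BA cells and 10.5 and 11.1 FPKM in TF1-BAR cells (log2 fold change 0.20, adjusted p = 0.176, and 0.11 without TF1-BA replicate 1). STAT6, which serves interleukin-4, had 9.54 and 8.88 FPKM beside 9.59 and 9.77 FPKM (log2 fold change 0.069, adjusted p = 0.531, and 0.020 to 0.12 with 1 TF1-BA library left out). STAT4, a factor of lymphocytes, was nearly absent and was the 1 gene under the filter, with 16 and 5 fragments in TF1-BA cells and 3 and 2 in TF1-BAR cells. The values of TF1-BAR cells are at or under a floor of 3 fragments, and no test of STAT4 is reported at these low numbers. The summed FPKM of the 6 genes was 163 and 164 in TF1-BA cells and 162 and 167 in TF1-BAR cells.

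In the SOCS family of feedback inhibitors 3 of 8 genes rose and 0 fell, beside 16.3% of all genes that were higher and 10.5% that were lower. SOCS3, which blocks receptors that signal through gp130 and STAT3, had 16.4 and 13.1 FPKM in TF1-BA cells and 25.3 and 27.8 FPKM in TF1-BAR cells. Its mean rose 1.80-fold, from 14.7 ± 2.29 to 26.5 ± 1.79 FPKM (log2 fold change 0.83, SE 0.123, adjusted p = 0.0129), on 555 to 1222 fragments per library. SOCS2, a STAT5 target that restrains growth hormone and cytokine receptors, had 15.5 and 12.5 FPKM in TF1-BA cells and 18.6 and 20.3 FPKM in TF1-BAR cells. Its log2 fold change of 0.47 (SE 0.122, adjusted p = 0.0465) lay close to the threshold, and 8 of 12 other settings with all libraries kept it, with a highest adjusted p of 0.129. When the replicate number was entered as a block, SOCS2 and CISH lost their calls, at adjusted p-values of 0.0644 and 0.0545. An antisense gene, SOCS2-AS1, shares 1955 bases with SOCS2 and had a mean of 1.26 FPKM. The study's methods give default parameters for the pipeline and do not say whether the counting used strand.

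CISH, the classical feedback gene of STAT5, had 14.1 and 12.5 FPKM in TF1-BA cells and 17.2 and 19.7 FPKM in TF1-BAR cells. Both resistant libraries were above both sensitive ones, the mean rose 1.39-fold from 13.3 ± 1.14 to 18.5 ± 1.78 FPKM, and the log2 fold change was 0.46 (SE 0.103, adjusted p = 0.0338). CISH lies on the minus strand of chromosome 3 at 50606490 to 50611831 and shares 312 bases with MAPKAPK3 on the other strand, which had a mean of 40.2 FPKM and a log2 fold change of 0.17 (adjusted p = 0.159). The ratio of CISH to SOCS2 lay between 0.912 and 1.00 in the 4 libraries, while the ratio of SOCS3 to SOCS2 was 1.06 and 1.05 in TF1-BA cells and 1.36 and 1.37 in TF1-BAR cells.

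The CISH promoter is shown because it was the only promoter of the 28 genes found in the RefSeq promoter table that held the palindromic motif TTCNNNGAA, the GAS element to which STAT dimers bind. The 250 bases before its start, at chr3:50611775-50612024 of GRCh38.p14 on the minus strand, hold 4 matches, with the start taken from RefSeq, which lies inside the gene as the deposited coordinates draw it, so that part of these bases falls within it. The matches are printed in capitals and read 5′ to 3′.
CISH promoter: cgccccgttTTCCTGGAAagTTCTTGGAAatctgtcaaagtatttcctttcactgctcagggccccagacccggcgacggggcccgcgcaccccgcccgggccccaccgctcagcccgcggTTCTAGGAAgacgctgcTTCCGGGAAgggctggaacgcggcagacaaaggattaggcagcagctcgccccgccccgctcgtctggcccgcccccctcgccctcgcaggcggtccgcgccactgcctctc
The matches TTCCTGGAA and TTCTTGGAA stand 2 bases apart at the far end, at positions −241 to −222 counted from the start, and TTCTAGGAA and TTCCGGGAA stand 8 bases apart, at positions −129 to −104. At least 1 match was found in 6.57% of 35116 promoters of the table and for 8.09% of its 27305 genes, beside 1 of the 28 genes here. Promoters with 4 or more matches belonged to 4 of the 27305 genes. A match describes the letters only, and no binding was measured. SOCS2, SOCS5, SOCS7 and OSM were not among the genes of the table used.

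SOCS1, the inhibitor that binds the JAK kinases directly, had 4.89 and 5.17 FPKM in TF1-BA cells and 5.75 and 12.1 FPKM in TF1-BAR cells. Here TF1-BAR replicate 2 decided the value, since the log2 fold change of 0.68 (SE 0.33, adjusted p = 0.185) was 0.18 without this library and 1.19 without TF1-BAR replicate 1 (adjusted p = 0.0283). SOCS1 rested on 98 to 238 fragments per library and lies wholly within RMI2 on the opposite strand, which had a mean of 5.47 FPKM and a log2 fold change of 0.35. SOCS4, SOCS5, SOCS6 and SOCS7, the members linked mainly to receptor tyrosine kinases, had between 3.36 and 8.67 FPKM in every library. Their log2 fold changes were 0.21, 0.038, 0.18 and 0.11 with adjusted p-values of 0.298 to 0.793, and the lines overlapped for SOCS4 and SOCS5. The value of SOCS6 was 0.052 without TF1-BAR replicate 1 and 0.31 when TF1-BAR replicate 2 was left out. All 8 fold changes of the family were above 0, as were those of 57.3% of all genes, with a median log2 fold change of 0.33 beside 0.066, except that SOCS5 came to −0.039 under quantile normalization and that SOCS4 and SOCS5 came to −0.033 and −0.041 without TF1-BAR replicate 1. The summed FPKM of the family was 69.2 and 60.9 in TF1-BA cells and 88.9 and 98.3 in TF1-BAR cells, of which SOCS3 made up 23.7% and 21.6% in the sensitive libraries and 28.4% and 28.3% in the resistant ones.

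The PIM kinases, serine/threonine kinases that need no activation step and are controlled mainly by their mRNA, did not pass the test. PIM1 was higher in both resistant libraries, with a mean of 216 ± 29.3 FPKM in TF1-BA cells and 260 ± 11.3 FPKM in TF1-BAR cells (log2 fold change 0.28, 95% interval 0.0051 to 0.55, adjusted p = 0.114). It passed with limma voom, at an adjusted p of 0.0258. PIM2 overlapped between the lines, at 39.6 and 34.3 FPKM beside 32.1 and 38.1 FPKM (log2 fold change −0.076, adjusted p = 0.656), and PIM3 had 18.7 and 18.8 FPKM beside 19.3 and 24.2 FPKM (log2 fold change 0.20, adjusted p = 0.265). TF1-BAR replicate 2 decided the value of PIM3, with a log2 fold change of 0.039 without it and of 0.36 without TF1-BAR replicate 1 (adjusted p = 0.0408). For PIM1 the log2 fold change was 0.41 without TF1-BA replicate 1 and 0.14 without TF1-BA replicate 2. PIM1 made up 78.6% to 83.1% of the summed FPKM of the 3 genes in every library. The ratio of PIM1 to PIM2 was 5.97 and 5.68 in TF1-BA cells and 7.86 and 7.04 in TF1-BAR cells.

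Among the nuclear and membrane-near inhibitors, 0 of 8 genes had an adjusted p under 0.05 with limma, 4 of 8 had an unadjusted p under 0.05, and 2 passed with limma voom. The shares over all genes were 26.9%, 42.2% and 37.4%. The PIAS genes, SUMO ligases that hold back STAT proteins in the nucleus, were expressed at low levels. PIAS4 had 3.98 and 3.81 FPKM in TF1-BA cells and 4.72 and 5.07 FPKM in TF1-BAR cells (log2 fold change 0.29, adjusted p = 0.0651), PIAS1 had 5.55 and 5.41 FPKM beside 6.36 and 6.40 FPKM (0.20, adjusted p = 0.109), and PIAS2 and PIAS3 had log2 fold changes of −0.13 and 0.066. Without TF1-BA replicate 1 that of PIAS2 was −0.063, and without TF1-BAR replicate 2 that of PIAS3 was 0.038. With FPKM rescaled to TPM, PIAS4 passed with limma, at a log2 fold change of 0.38 and an adjusted p of 0.0398. Of the phosphatases, PTPN1, which acts on JAK2 and TYK2 at the endoplasmic reticulum, had 81.4 and 70.5 FPKM in TF1-BA cells and 61.9 and 65.3 FPKM in TF1-BAR cells. Its log2 fold change was −0.25 (95% interval −0.48 to −0.023, adjusted p = 0.0964, with limma voom 0.0311). It was −0.15 without TF1-BA replicate 1 and −0.35 without TF1-BA replicate 2, and the 440 genes tested on its chromosome 20 had a median log2 fold change of 0.39. PTPRC, the leukocyte phosphatase CD45, had 42.5 and 44.3 FPKM beside 38.4 and 35.6 FPKM. Its log2 fold change was −0.23 (adjusted p = 0.0682, with limma voom 0.0276), and it came to 0.017 once the trend of the fold change on GC content, length and level was removed. PTPN2, which dephosphorylates JAK1 and JAK3, had a log2 fold change of 0.20 (adjusted p = 0.131), and PTPN6, the phosphatase SHP-1 of blood cells, one of 0.17 (adjusted p = 0.120).

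SH2B3, the adaptor LNK that restrains JAK2 in blood progenitors, had 42.9 and 40.8 FPKM in TF1-BA cells and 31.3 and 38.0 FPKM in TF1-BAR cells. The resistant libraries were both lower than the sensitive ones and also apart from each other, and the log2 fold change was −0.27 (adjusted p = 0.120, with limma voom 0.0321), and it was −0.14 without TF1-BAR replicate 1 but −0.41 when TF1-BAR replicate 2 was left out. STAM, an adaptor in receptor sorting, had 26.8 and 27.3 FPKM beside 25.3 and 22.9 FPKM (log2 fold change −0.16, adjusted p = 0.165). This value was −0.095 without TF1-BAR replicate 2 and −0.018 with the trend on GC content, length and level removed, and the 593 genes tested on chromosome 10, where STAM lies, had a median of −0.35. OSM, a cytokine of the interleukin-6 family, had 4.48 and 3.06 FPKM beside 4.71 and 5.30 FPKM (log2 fold change 0.38, adjusted p = 0.175). Its log2 fold change was 0.63 without TF1-BA replicate 1 and 0.14 without TF1-BA replicate 2.

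**Figure D4:**
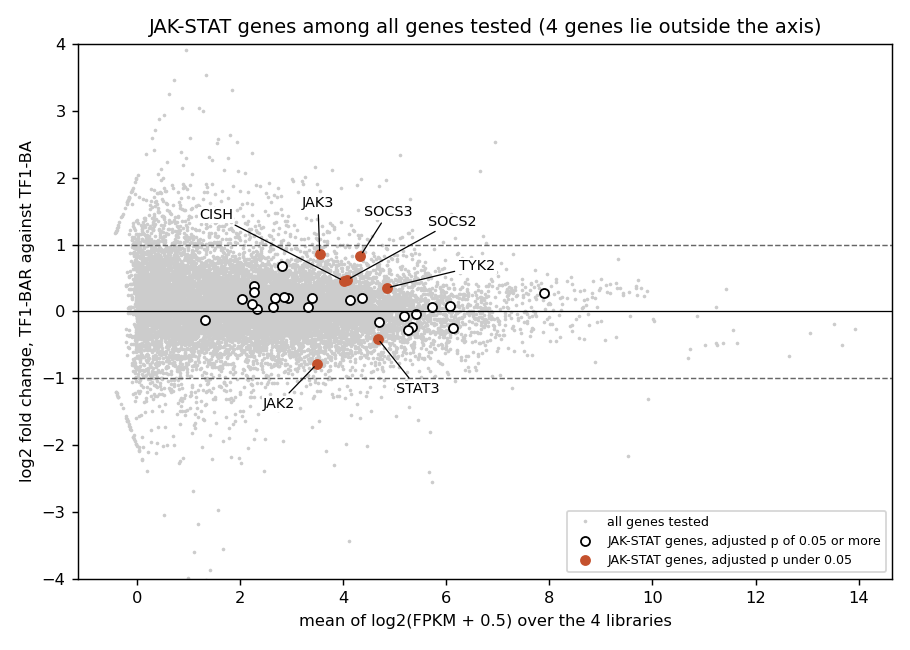
Log2 fold change, TF1-BAR against TF1-BA, over the mean of log2(FPKM + 0.5) for the 15519 genes tested (grey) and the 31 JAK-STAT genes (circles, filled where the adjusted p was under 0.05), with 4 genes beyond the vertical axis. Every circle lies between the dashed lines at −1 and 1, which 737 genes with an adjusted p under 0.05 lie beyond.

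Other genes of the pathway were taken from 4 fixed lists, of which 57 of 67 genes could be tested. Of these 11 were higher and 9 lower at an adjusted p under 0.05, together 35.1% beside 26.9% of all genes, and under quantile normalization 10 were higher and 13 lower. Their median log2 fold change was 0.030, and 0.066 over all genes. Among 20 receptors 4 were higher and 3 lower, together 35.0% beside 26.9% of all genes, and 3 passed the fold threshold too, all upwards, beside 4.75% of all genes in either direction. KIT, the stem cell factor receptor and a target of imatinib, went from 28.4 and 25.4 FPKM to 58.7 and 59.3 FPKM (log2 fold change 1.12, adjusted p = 0.00409). CSF1R went from 0.215 and 0.326 FPKM to 1.34 and 1.32 FPKM (log2 fold change 1.25, adjusted p = 0.0124). It rested on 20 and 26 fragments in TF1-BA cells and 109 in each TF1-BAR library. Its TF1-BA mean of 0.271 FPKM lay under the filter for testing, which CSF1R met only through its level in TF1-BAR cells. A gene that enters the test in this way can only be higher in TF1-BAR cells. The chains of the receptor for GM-CSF, in which the cells grew, did not pass, with a log2 fold change of −0.19 for CSF2RA (adjusted p = 0.155) and of 0.27 for CSF2RB (adjusted p = 0.0593).

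Of the ligands, 4 of 10 could be tested, and 2 were higher and 1 lower, or 75.0% of these few genes beside 26.9% of all genes. Of 16 partners and further regulators 2 were higher and 0 lower, or 12.5% beside 26.9% of all genes, and 6 had an unadjusted p under 0.05, beside 42.2% of all genes. Of 18 STAT5 and STAT3 targets tested 3 were higher and 5 lower, together 44.4% beside 26.9% of all genes. IL2RA, a STAT5 target and the alpha chain of the interleukin-2 receptor, alone passed the fold threshold, falling from 2.25 and 2.65 FPKM to 0.819 and 0.666 FPKM (log2 fold change −1.25, adjusted p = 0.00884), and it lies on chromosome 10. The motif TTCNNNGAA was found in the promoters of 3 of 16 targets in the promoter table, beside 8.09% of its 27305 genes.

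The changes of the 7 genes kept their direction in all 16 other settings, but for many of these this was fixed in advance. Some settings change only the test or the genes tested, not the fold change. The libraries of the lines did not overlap for these 7 genes, so leaving out 1 library could not turn a sign. With all 4 libraries the log2 fold change ranged from −0.83 to −0.59 for JAK2, from 0.82 to 0.95 for JAK3 and from 0.81 to 0.92 for SOCS3, and from 0.43 to 0.54 for CISH. JAK2 and SOCS3 passed in 11 of 12 of these settings and CISH in 9 of 12. With 1 library left out the adjusted p of JAK3 ran from 0.0290 without TF1-BAR replicate 1 to 0.0634 without TF1-BA replicate 1, and that of JAK2 from 0.0352 without TF1-BAR replicate 1 to 0.0967 without TF1-BA replicate 1. An exact permutation test of 2 against 2 libraries cannot give a p below 0.333, so none was used for single genes.

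**Figure D5:**
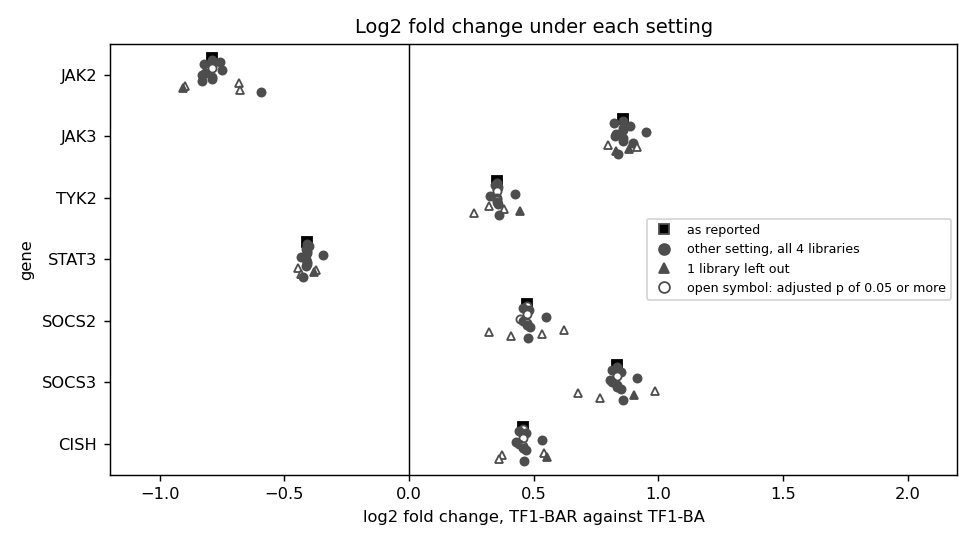
Log2 fold change of the 7 genes with an adjusted p under 0.05 as reported (square), under 12 other settings with all 4 libraries (circles) and with 1 library left out (triangles), open where the adjusted p was 0.05 or more. The symbols of each gene stay on 1 side of 0, and the triangles spread farther than most circles.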

How the data were processed

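RNA was extracted with TRIzol, libraries were made with the NEBNext Ultra kit and 150-bp paired ends were sequenced. The authors mapped reads to GRCh38 with TopHat2 2.0.13 and name Cufflinks 2.2.0 and Cuffdiff 2.2.0 for later steps. Whether these tools made the deposited FPKM values per gene and library was not tested. The annotation release is not given in the sources used here.

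Libraries were grouped by the cell line named in their labels and compared by limma 3.58.1 in R 4.3.3 (lmFit, eBayes with a trend) on log2(FPKM + 0.5), over 15519 genes with a mean of at least 0.5 FPKM. Adjustment was by Benjamini-Hochberg. The pseudocount makes the fold changes of low genes too small. Genes counted as differentially expressed had an adjusted p under 0.05 and a log2 fold change of 1 or more in size.

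Fragments were recovered by finding the library sizes and lengths at which FPKM values became whole (tolerance 0.02), and 3 of 30853 genes above 0 did not. They cover counting error only. Libraries of a line differed beyond sampling noise (chi-square per degree of freedom 4.12 and 6.97).

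The 32 genes and the lists of pathway genes and markers were chosen with earlier results of these data known. Named were all 32 genes, CSF2RA, CSF2RB, and at most 4 genes of each list past both thresholds, of which 1 is not reported here. In TF1-BA and TF1-BAR cells, markers of B cells summed to 3.11 to 3.46 and 4.13 to 4.46 FPKM, those of monocytes (nearly all LYZ, with CD14 at or under 0.0673) to 13.9 to 15.4 and 17.0 to 17.9 FPKM, and those of fibroblasts to 0.395 to 0.442 and 0.248 to 0.383 FPKM. Their part in the results was not tested. Promoters came from RefSeq (GRCh38.p14).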

Additional observations from a re-analysis of the deposited data

How the results depend on the processing

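The 737 differentially expressed genes were 487 with a pseudocount of 1 FPKM and 1157 with limma voom, and 42 to 783 with 1 library left out. Of these 64.3% were higher in TF1-BAR cells, and 51.5% under quantile normalization. JAK-STAT genes past both thresholds numbered 0 in every setting with 4 libraries, and 0 to 1 with 1 library left out, the 1 being SOCS1 without TF1-BAR replicate 1. Those with an adjusted p under 0.05 numbered 7, but 2 with no filter on low values, which adds genes to the adjustment, 4 with eBayes without the trend, 11 with limma voom, and 0 to 8 with 1 library left out. The 20 other pathway genes became 7 with no filter and 1 to 14 with 1 library left out. Among single genes, the sign turned for JAK1 to 0.034 with TPM and 0.0049 with the trend on GC content, length and level removed (an alternative added after seeing the data), for PTPRC to 0.017 with that removal, for SOCS5 to −0.039 under quantile normalization, and with 1 library left out for SOCS4 (−0.033 to 0.46), SOCS5 (−0.041 to 0.12) and PIM2 (−0.20 to 0.046), each at the far end without TF1-BAR replicate 1, and PIM2 also without TF1-BA replicate 1 (0.026). The causes of these shifts were not tested. With 1 library left out, the lone library of its line is assumed to vary like the other line. The replicate numbers were not found to pair the libraries, as deviations of same-numbered libraries correlated at 0.0646 over 2 pairs. With the number as a block 5 JAK-STAT genes had an adjusted p under 0.05. Past both thresholds there were 755 of all genes and 0 JAK-STAT genes. With 2 libraries per line, small changes of genes near the thresholds remain undecided.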
